A study of Danio rerio with 12 samples.

Results

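Described here are 10 genes of adult zebrafish brain, those encoding the subunits of the transcription factor NF-κB (*nfkb1*, *nfkb2*, *rel*, *rela* and *relb*) and the IκB proteins that bind them (*nfkbiaa*, *nfkbiab*, *nfkbib*, *nfkbie* and *nfkbiz*). They were taken by symbol from the 32520 gene IDs in the deposited tables, *nfkbiab* by its ID (ENSDARG00000007693), a rule that uses names alone, although the set was chosen with earlier results of these data known. RNA had been sequenced from whole brains of 12 male zebrafish aged 22 months, with olfactory bulbs and pituitary attached and 1 poly(A)-selected library per brain. The 6 GR-mutant brains came from fish homozygous for the missense allele s357 of *nr3c1* (gr s357/s357), the gene for the glucocorticoid receptor (GR), and the 6 wild-type brains came from gr +/+ fish. Both groups descended from in-crosses of heterozygous carriers, none was treated, all were sampled in the morning, and every cell of a mutant fish carries the allele. The genotypes were housed in separate tanks, so an effect of the tank and an effect of the genotype cannot be told apart.

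NF-κB acts as dimers of its subunits. In resting cells IκB proteins hold these dimers in the cytoplasm; when a receptor activates the IκB kinase complex, IκB is phosphorylated, tagged with ubiquitin and degraded, and the freed dimers enter the nucleus and switch on cytokine, chemokine and survival genes. The gene for IκBα is itself a target, which closes a negative feedback loop, and in mammalian cells glucocorticoids also raise its transcription. In the brain the pathway is known from microglia, astroglia and endothelium as well as from neurons.

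Values are normalised counts, that is, reads per gene divided by a size factor of the library, and were compared on the scale log2(normalised count + 1). The reads assigned to genes numbered 24809137 to 36313866 per GR-mutant library (median 31488004.5) and 24407683 to 37548901 per wild-type library (median 29249302.5). All 10 genes passed the filter on low values, and each had at least 29 reads in every library. The summed normalised counts were 28539104 to 29513949 in GR-mutant libraries and 29540644 to 31637122 in wild-type libraries, without overlap. The transcript of *nr3c1* averaged 4817 ± 116 normalised counts in GR-mutant brains and 4329 ± 200 in wild-type brains (SD, n = 6 each), a difference of 0.15 on the log2 scale (adjusted p = 0.0160, limma). The allele changes an amino acid of the protein and leaves the gene in place, so the transcript is no check of the labels. Mitochondrial transcripts made up 6.60 to 7.22% of the counts in GR-mutant and 6.07 to 10.1% in wild-type libraries, highest in wild-type 1. No marker gene of any list was at 0 in all 12 libraries. Liver and muscle markers summed to 106 to 11546 in GR-mutant and 94.4 to 4721 in wild-type libraries, with 0 of 3 tested genes passing. The oligodendrocyte sums were 174906 to 379493 in GR-mutant and 236700 to 303498 in wild-type libraries, with 0 of 6 genes passing. The summed neuronal markers were 252202 to 268479 in GR-mutant and 268610 to 284996 in wild-type libraries, with 2 of 9 tested genes lower. For microglia and macrophages the sums were 15372 to 32265 in GR-mutant and 18859 to 31848 in wild-type libraries, with 1 of 9 genes lower and 1 higher. The radial glial markers summed to 107350 to 127490 in GR-mutant and 126332 to 143635 in wild-type libraries; both copies of GLUL were lower without overlap (ENSDARG00000100003, log2 fold change -1.29, and ENSDARG00000099776, -0.42), FABP7 (ENSDARG00000007697) was higher, and 5 of 8 tested genes did not pass. The pituitary markers summed to 270 to 54570 in GR-mutant and 3163 to 19885 in wild-type libraries, with POMC higher (log2 fold change 2.84, adjusted p = 0.0387, limma), and of 3 blood markers *cahz* was lower (-0.52, adjusted p = 0.00421, limma). For endothelium the sums were 3701 to 5244 in GR-mutant and 3545 to 4094 in wild-type libraries. There, of 8 genes, *kdrl* was lower and CLDN5 (ENSDARG00000043716) and SLC2A1 (ENSDARG00000001437) were higher in GR-mutant brains. Over all genes tested 9.92% were lower and 7.59% higher in GR-mutant brains at an adjusted p under 0.05 (limma). The part of these marker shifts in the results below was not tested.

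The main change among the 10 genes was in 1 of the 2 paralogs for IκBα. In GR-mutant brains *nfkbiab* was 72.7% lower than in wild-type brains, whereas the difference in its paralog *nfkbiaa* did not pass the test. *nfkbib*, for IκBβ, was 10.6% lower, and *nfkb2*, for the precursor subunit of the non-canonical branch, was 27.8% higher. At an adjusted p under 0.05 (limma, Benjamini-Hochberg over all genes tested) 2 of the 10 genes were therefore lower and 1 was higher. Over the 20114 genes tested, 9.92% were lower, 7.59% were higher, and 17.5% passed in either direction. The balance over all genes depended on the scaling: 1996 were lower and 1527 higher as deposited, against 1312 lower and 3023 higher with library totals equalised, where the median log2 fold change of all genes was 0.09. The median log2 fold change, GR-mutant minus wild-type, was 0.06 over the 10 genes and 0.01 over all genes tested at the deposited scaling. Among the 5 IκB genes 2 were lower and none was higher (median log2 fold change -0.16), and among the 5 subunit genes none was lower and 1 was higher (median 0.32). edgeR and DESeq2 on the recovered reads gave these same counts. At an unadjusted p under 0.05 in limma 2 IκB genes were lower and 0 higher, and 0 subunit genes were lower and 2 higher.

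**Figure D1:**
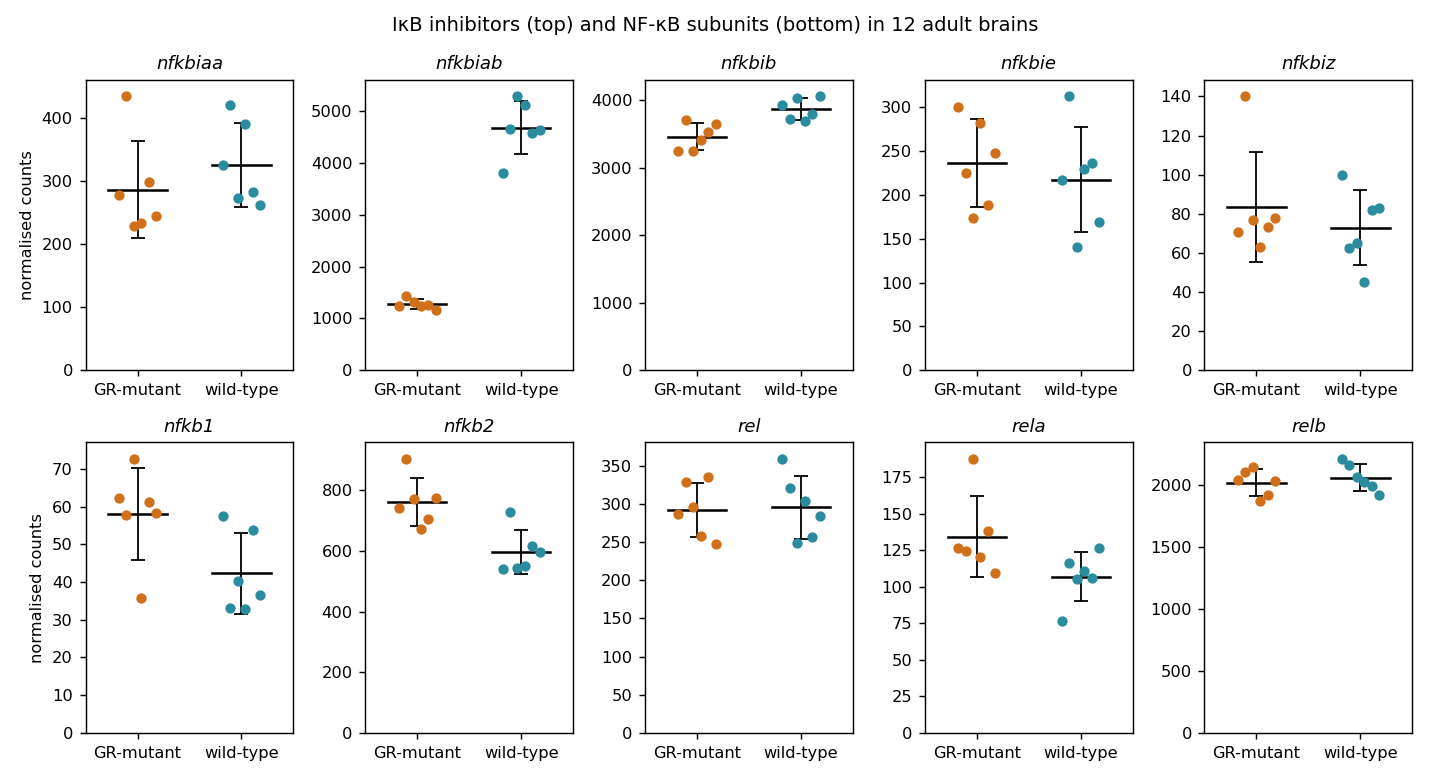
Normalised counts (vertical axes, each starting at 0) of the 5 IκB genes, top row, and the 5 NF-κB subunit genes, bottom row, in 6 GR-mutant and 6 wild-type brains. Points are single brains, horizontal lines are means and bars are 1 SD. For *nfkbiab* the 6 GR-mutant brains lie between 1166 and 1437 and the 6 wild-type brains between 3814 and 5287; in the other 9 panels the groups overlap.

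*nfkbiab* encodes an IκBα, the inhibitor that is degraded and remade fastest after a stimulus in mammalian cells. Its normalised counts were 1244, 1437, 1322, 1240, 1253 and 1166 in GR-mutant brains 1 to 6, against 3814, 4654, 5287, 5121, 4573 and 4627 in wild-type brains 1 to 5 and 7. The highest GR-mutant brain thus lay far below the lowest wild-type brain, which was wild-type 1. Whether fewer cells expressed the gene or each cell held less of its RNA cannot be told apart in whole brains. The means were 1277 ± 92.8 in GR-mutant and 4679 ± 515 in wild-type brains (SD, n = 6 each), with a log2 fold change of -1.87 (SE 0.07, 95% interval -2.03 to -1.71, adjusted p = 4.93e-09, limma). It ranked 4 by p among the 20114 genes tested. A larger fall was fitted for 118 of these genes, and for 13 of the 5590 genes with a mean of at least 1000 normalised counts. The values did not overlap between genotypes for 1 of the 10 genes, *nfkbiab*, and for 8.27% of all genes tested (4.92% with GR-mutant lower and 3.35% with GR-mutant higher). Between 1042 and 5703 reads per library lay behind each value of this gene.

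*nfkbiaa* (ENSDARG00000005481) encodes the other IκBα. It had 278, 435, 230, 234, 299 and 245 normalised counts in GR-mutant brains 1 to 6, and 327, 421, 274, 391, 283 and 262 in wild-type brains 1 to 5 and 7. The ranges overlapped, with 3 GR-mutant brains below the lowest wild-type brain and GR-mutant 2 above the highest. The log2 fold change was -0.20 with a 95% interval of -0.56 to 0.16 (adjusted p = 0.440, limma), so that a fall of up to 0.56 on the log2 scale lies within the interval. The paralogs were then compared within each library, where the scaling between libraries cancels. GR-mutant brains held 4.63 ± 0.86 *nfkbiab* counts per *nfkbiaa* count (3.30 to 5.76) and wild-type brains 14.8 ± 3.38 (11.1 to 19.3; SD, n = 6 each). The log2 ratio differed by -1.67 between the genotypes (p = 0.00216 in a two-sided exact permutation test, the lowest value possible with 6 brains against 6), so the pair changed unequally. As the counts are not per length, the ratio compares genotypes and not the levels of the paralogs. Reads that map to several places are left out of STAR's gene counts.

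The nearest tested neighbours of both paralogs in the gene order did not pass the test. On the 2 sides of *nfkbiab*, INSM2 had a log2 fold change of 0.29 (adjusted p = 0.146, limma) and PSMA6 (ENSDARG00000019398), a proteasome subunit, one of 0.02 (adjusted p = 0.892, limma). Next to *nfkbiaa* lay *brms1lb* at -0.12 (adjusted p = 0.248, limma) and, beyond a gene under the filter, the other PSMA6 copy (ENSDARG00000013966) at -0.01 (adjusted p = 0.938, limma). Both IκBα paralogs thus have a PSMA6 copy nearby, and neither copy passed the test.

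*nfkbib* (ENSDARG00000030087) encodes IκBβ, which in mammalian cells is degraded more slowly than IκBα. It had 3246, 3698, 3240, 3407, 3530 and 3640 normalised counts in GR-mutant brains 1 to 6, against 3931, 3727, 4035, 3689, 3787 and 4058 in wild-type brains 1 to 5 and 7. In 5 of the 6 GR-mutant brains the value was below the lowest wild-type brain, and GR-mutant 2 lay just above it. The log2 fold change was -0.16 (SE 0.05, 95% interval -0.26 to -0.06, adjusted p = 0.0274, limma). This call was lost with library totals equalised (-0.080, adjusted p = 0.232), without the mean-variance trend (adjusted p = 0.0565), and without wild-type 3 (adjusted p = 0.0568), wild-type 7 (adjusted p = 0.0512), GR-mutant 1 (adjusted p = 0.0616) or GR-mutant 3 (adjusted p = 0.0601).

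For *nfkbie* (ENSDARG00000068367), which encodes IκBε, the range was 173 to 300 normalised counts in GR-mutant and 141 to 313 in wild-type brains. *nfkbiz* (ENSDARG00000102097) encodes IκBζ, a nuclear member of the family that in mammals acts as a coactivator at a subset of NF-κB targets. It ranged over 63.1 to 140 normalised counts in GR-mutant and 45.3 to 100.1 in wild-type brains. Neither difference passed the test, with log2 fold changes of 0.14 for *nfkbie* (95% interval -0.27 to 0.54, adjusted p = 0.656, limma) and 0.18 for *nfkbiz* (95% interval -0.29 to 0.66, adjusted p = 0.603, limma).

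*nfkbiab* and *nfkbib* together gave most of the IκB counts, and the shares of both differed between the genotypes. *nfkbiab* supplied 24.2, 24.2, 26.2, 23.7, 23.4 and 21.7% of the counts of the 5 IκB genes in GR-mutant brains 1 to 6, against 45.5, 50.7, 53.9, 54.0, 51.0 and 50.3% in wild-type brains 1 to 5 and 7. *nfkbib* supplied 64.8 ± 1.97% in GR-mutant and 42.3 ± 2.81% in wild-type brains (SD, n = 6 each). The IκB genes summed to 5344 ± 316 normalised counts in GR-mutant and 9167 ± 479 in wild-type brains, and the subunit genes to 3269 ± 210 in GR-mutant and 3104 ± 160 in wild-type brains (SD, n = 6 each). Hence there were 1.64 ± 0.11 IκB counts per subunit count in GR-mutant brains (1.45 to 1.77) and 2.96 ± 0.26 in wild-type brains (2.58 to 3.27). These sums are transcript counts without correction for gene length, they follow from the values of the single genes, and no test was made of them.

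**Figure D2:**
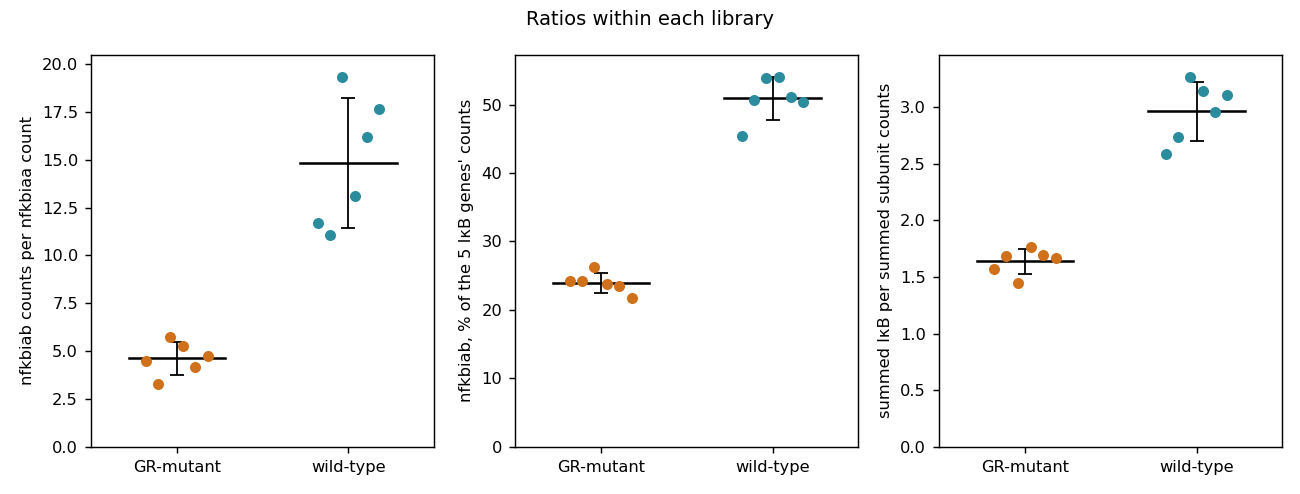
Ratios within each library for 6 GR-mutant and 6 wild-type brains, with points for single brains, lines for means and bars of 1 SD; all axes start at 0. Left, *nfkbiab* counts per *nfkbiaa* count; centre, *nfkbiab* as a percentage of the counts of the 5 IκB genes; right, summed IκB counts per summed subunit counts, 1.64 on average in GR-mutant and 2.96 in wild-type brains. The genotypes occupy separate ranges in each panel.

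Among the subunits, the change that passed was a rise of *nfkb2* (ENSDARG00000038687), whose product is a precursor that retains *relb* dimers in the cytoplasm until it is processed. It had 743, 903, 770, 673, 705 and 773 normalised counts in GR-mutant brains 1 to 6, against 540, 727, 543, 550, 617 and 597 in wild-type brains 1 to 5 and 7. The ranges met only through wild-type 2, which exceeded GR-mutant 4 and GR-mutant 5, and the other 4 GR-mutant brains exceeded every wild-type brain. The log2 fold change was 0.35 (SE 0.09, 95% interval 0.17 to 0.54, adjusted p = 0.0141, limma). Beside it in the gene order, PSD, an exchange factor for small GTPases, was also higher in GR-mutant brains (means of 905 normalised counts in GR-mutant and 738 in wild-type brains, log2 fold change 0.30, adjusted p = 0.0262, limma), and whether the genes share reads was not tested. Genes that passed also lay near *nfkbib* (H3-3B, lower), *nfkbiz* (RPL24, lower, and EED, higher) and *rela* (C7H11orf68, lower, and *cabz01076234.2*, higher). Over all genes tested 17.5% passed in either direction.

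*relb* (ENSDARG00000086173) encodes the partner of the processed *nfkb2* product. Its counts were the most even of the 10 genes among GR-mutant brains, 1870 to 2151, against 1920 to 2214 in wild-type brains. The difference did not pass (log2 fold change -0.03, 95% interval -0.14 to 0.08, adjusted p = 0.726, limma). The upper end of that interval lies below the fold change of *nfkb2*.

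*nfkb1* (ENSDARG00000105261) and *rela* (ENSDARG00000098696) encode the subunits of the classical dimer, *nfkb1* as a precursor and *rela* with the domain that activates transcription. *nfkb1* had 62.4, 57.7, 72.7, 35.7, 61.3 and 58.3 normalised counts in GR-mutant brains 1 to 6, against 57.5, 33.0, 40.2, 32.8, 53.8 and 36.5 in wild-type brains 1 to 5 and 7. Here 5 of the 6 GR-mutant brains lay above every wild-type brain and GR-mutant 4 lay among the lowest. With a log2 fold change of 0.45 (95% interval 0.01 to 0.89), *nfkb1* missed the threshold (adjusted p = 0.147, limma). It was the one gene of the 10 placed by the RefSeq table on the chromosome of *nr3c1*, where nearby alleles are inherited with the mutation, and whether that bears on its counts was not tested. *rela* had 127, 125, 187, 120, 138 and 109 normalised counts in GR-mutant brains 1 to 6, and 76.3, 116, 105, 111, 106 and 127 in wild-type brains 1 to 5 and 7. GR-mutant 3 was highest and wild-type 1 lowest, and the remaining brains overlapped. Its log2 fold change of 0.32 (95% interval -0.0041 to 0.65) missed the threshold too (adjusted p = 0.157, limma).

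*rel* (ENSDARG00000055276) encodes c-Rel, known above all from lymphocytes and other blood cells. It ranged over 248 to 335 normalised counts in GR-mutant and 248 to 359 in wild-type brains, with means of 292 ± 35.7 in GR-mutant and 296 ± 41.6 in wild-type brains (SD, n = 6 each). The log2 fold change was -0.01 (95% interval -0.25 to 0.22, adjusted p = 0.948, limma). Markers of neutrophils and lymphocytes summed to 101 to 244 normalised counts in GR-mutant and 127 to 390 in wild-type libraries, and 0 of their 5 tested genes passed in limma, edgeR or DESeq2 or had an unadjusted p under 0.05 in limma.

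**Figure D3:**
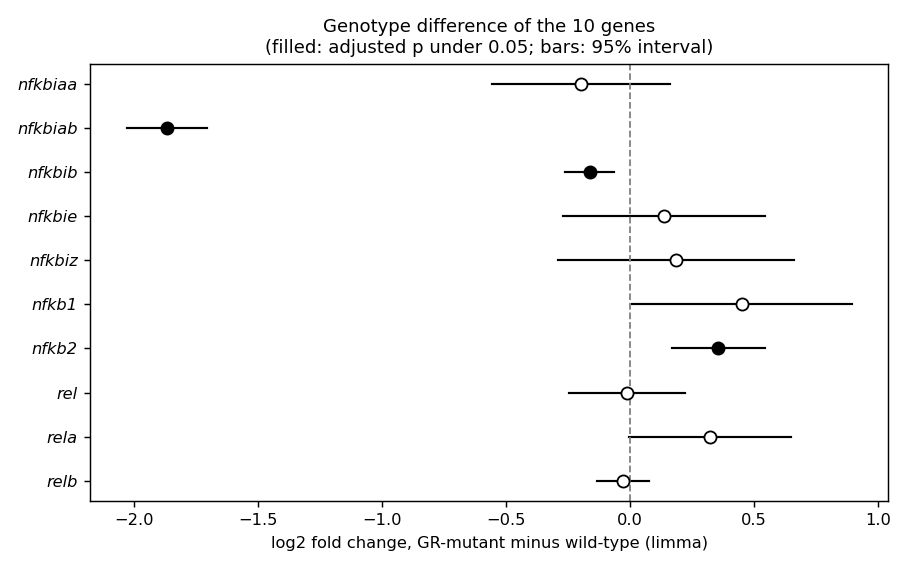
Log2 fold change, GR-mutant minus wild-type, from limma (horizontal axis) for the 10 genes; bars are 95% intervals, filled points have an adjusted p under 0.05 and open points do not. *nfkbiab* stands at -1.87, *nfkbib* at -0.16 and *nfkb2* at 0.35, and the other 7 points are open.

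The spread between brains of 1 genotype differed among the genes. The coefficient of variation ran from 5.33% (*relb*) to 33.7% (*nfkbiz*) in GR-mutant brains and from 4.11% (*nfkbib*) to 27.5% (*nfkbie*) in wild-type brains. GR-mutant 2 held the highest GR-mutant value of 5 of the 10 genes (*nfkbiaa*, *nfkbiab*, *nfkbib*, *nfkbiz* and *nfkb2*), and of 19.4% of all genes tested. After subtraction of each genotype's mean, Pearson's r between *nfkbiab* and each other gene but *nfkb1* and *nfkbiz*, whose means were under 100 normalised counts, was over the 12 libraries 0.54 with *rela*, 0.29 with *nfkbiaa*, 0.24 with *nfkb2*, 0.0099 with *nfkbib*, -0.10 with *relb*, -0.19 with *rel* and -0.32 with *nfkbie*. Within a genotype, over 6 libraries each, the values were unlike for some genes and closer for others, and no difference between them was tested. In GR-mutant brains r was 0.72 with *nfkbiaa*, 0.69 with *nfkb2*, 0.71 with *rel* and 0.50 with *relb*. In wild-type brains it was -0.012 with *nfkbiaa*, -0.010 with *nfkb2*, -0.69 with *rel* and -0.50 with *relb*. With *nfkbie* r was -0.36 in GR-mutant and -0.31 in wild-type brains. It was 0.14 in GR-mutant and -0.10 in wild-type brains with *nfkbib*, and 0.38 and 0.69 with *rela*. Among 14667 genes with a mean of at least 100 normalised counts, the 5 with the highest r were *nedd9* (r = 0.94), a scaffold protein of focal adhesions, *rbm14b* (0.91), *trib3* (0.90), a pseudokinase, *usp33* (0.90), a deubiquitinase, and IRS2 (ENSDARG00000037099; 0.90), an insulin receptor substrate. Of these 5, *nedd9* (log2 fold change -0.47, adjusted p = 0.00134), *trib3* (-1.02, adjusted p = 5.94e-05) and IRS2 (-0.62, adjusted p = 0.000811) were also lower in GR-mutant brains, while *rbm14b* (-0.92, adjusted p = 0.110) and *usp33* (-0.05, adjusted p = 0.550) did not pass (limma). Over all genes tested 9.92% were lower at an adjusted p under 0.05 (limma). The 5 genes were picked as the highest of 14667 values of r, and such a choice alone gives a high r. The correlations are a description of 12 libraries that share their scaling.

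**Figure D4:**
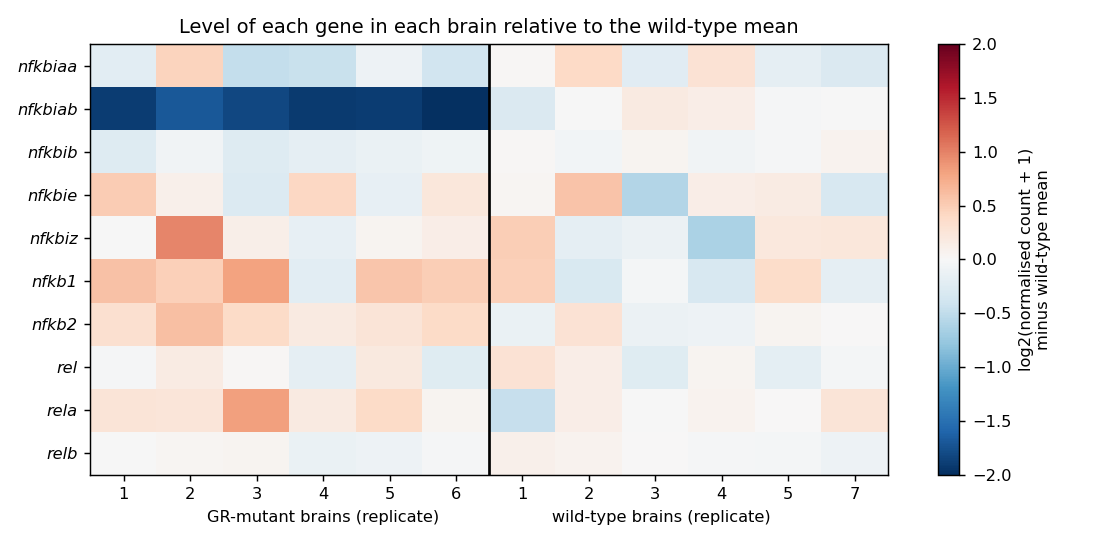
Level of each of the 10 genes (rows) in each brain (columns, GR-mutant brains 1 to 6 left of wild-type brains 1 to 5 and 7), as log2(normalised count + 1) minus the wild-type mean of that gene; red is above and blue below that mean. The *nfkbiab* row is blue in the 6 GR-mutant brains, *nfkb2* is red in them, and single high values stand out for *nfkbiz* in GR-mutant 2 (140 normalised counts) and *rela* in GR-mutant 3 (187).

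Around the 10 genes, 97 other genes of the pathway were matched from lists by role, and 91 of them were tested. In GR-mutant brains 10 were lower and 10 were higher, with a median log2 fold change of -0.02, against 9.92% lower, 7.59% higher and a median of 0.01 over all genes tested. These counts did not all hold when a library was left out: without wild-type 5 the lower genes numbered 5, and without GR-mutant 5 they numbered 6. Over all genes tested, 1765 were lower without wild-type 5 and 1555 without GR-mutant 5, against 1996 with all 12 libraries. With library totals equalised, 17 of the 91 were higher. Of all 20114 genes, 3023 were higher at that scaling, against 1527 as deposited.

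Of 19 tested receptors and ligands, 2 were lower and 5 higher, against 9.92% lower and 7.59% higher over all genes tested. Over the 22 alternatives run, the number higher went from 1 to 6. *cd40*, a receptor of the TNF family, had 586, 593, 604, 490, 652 and 502 normalised counts in GR-mutant brains 1 to 6, against 400, 450, 395, 407, 488 and 399 in wild-type brains 1 to 5 and 7. Each GR-mutant brain exceeded each wild-type brain (log2 fold change 0.43, adjusted p = 0.00428, limma). *tnfrsf1a*, a receptor for TNF, was higher as well, at 667 ± 163 in GR-mutant and 383 ± 106 in wild-type brains (SD, n = 6 each), a log2 fold change of 0.80 (adjusted p = 0.0165, limma). The 2 lower receptors were *tnfrsf11a*, the receptor RANK, at 289 ± 45.4 in GR-mutant and 412 ± 41.1 in wild-type brains (SD, n = 6 each; -0.52 on the log2 scale, adjusted p = 0.00612, limma), and *tlr18*, a Toll-like receptor of fishes (log2 fold change -1.36, adjusted p = 0.00496, limma). *tlr18* had 46.4 to 72.7 normalised counts in GR-mutant brains and 162 to 245 in 5 wild-type brains, but 58.8 in wild-type 1, within the GR-mutant range. The other rises, named after their values were seen, were those of *il1b*, the cytokine interleukin-1β (log2 fold change 0.73, adjusted p = 0.0206), *tnfrsf1b* (0.55, adjusted p = 0.0419) and *tlr5b* (0.38, adjusted p = 0.0472, limma). *tnfrsf1b* and *tlr5b* each lost the call in 9 of the 12 fits that left out 1 library (adjusted p up to 0.0870 and 0.0939). For *tnfrsf1b* it was kept without wild-type 4, wild-type 5 or GR-mutant 4, and for *tlr5b* without wild-type 5, GR-mutant 3 or GR-mutant 4. Neither passed with no filter (adjusted p = 0.0577 for *tnfrsf1b* and 0.0636 for *tlr5b*), nor did *tnfrsf1b* in edgeR (adjusted p = 0.0512).

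The 20 adaptors between receptors and kinases held 2 lower and 2 higher genes, against 9.92% lower and 7.59% higher over all genes tested. BIRC2, a ubiquitin ligase of TNF receptor complexes, had 4113, 4242, 3916, 3992, 3877 and 4329 normalised counts in GR-mutant brains 1 to 6, against 4673, 4893, 5648, 6048, 5889 and 6261 in wild-type brains 1 to 5 and 7, with no overlap (log2 fold change -0.44, adjusted p = 0.00101, limma). Its partners TRAF2 (ENSDARG00000030173) and *traf3*, which with it keep the kinase of the non-canonical branch at a low level in mammalian cells, were higher. TRAF2 (ENSDARG00000030173) averaged 495 ± 34.3 in GR-mutant and 391 ± 25.1 in wild-type brains (SD, n = 6 each), a log2 fold change of 0.34 (adjusted p = 0.00434, limma). The other TRAF2 genes did not pass. TRAF2 (ENSDARG00000078378) had a log2 fold change of 0.34 (adjusted p = 0.323) and *traf2b* one of 0.02 (adjusted p = 0.871, limma). *traf3* averaged 309 ± 31.0 in GR-mutant and 237 ± 31.0 in wild-type brains (SD, n = 6 each), a log2 fold change of 0.39 (adjusted p = 0.0188, limma). The kinase of the non-canonical branch is encoded by *map3k14a* and *map3k14b*, named after their values were seen. Neither passed (log2 fold changes of -0.04, adjusted p = 0.665, and 0.11, adjusted p = 0.616, limma). *ticam1*, the adaptor TRIF, was lower (log2 fold change -0.31, adjusted p = 0.0283, limma), a call lost without wild-type 3, 5 or 7 or GR-mutant 3 or 5 (adjusted p up to 0.0641) and with library totals equalised (adjusted p = 0.0924).

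Of 12 genes for IκB kinases and the kinases and scaffolds above them, 1 was lower and 1 higher, against 9.92% lower and 7.59% higher over all genes tested. Over the 22 alternatives, the number lower went from 0 to 1 and the number higher from 0 to 3. TAB2, a scaffold of the kinase TAK1, had 705 to 822 normalised counts in GR-mutant brains (log2 fold change -1.02, adjusted p = 0.0268, limma). In wild-type brains it had 2308, 2364, 2274 and 2129 in brains 1, 2, 4 and 5 but 749 and 789 in brains 3 and 7, so the wild-type values fell into separate ranges, and the call was lost without wild-type 1, 2, 4 or 5 or GR-mutant 1 (adjusted p up to 0.0617). MAP3K7, which is TAK1 itself, was slightly higher (log2 fold change 0.14, adjusted p = 0.0430, limma), a call kept in 2 of the 12 fits that left out 1 library, those without wild-type 7 and without GR-mutant 2, and lost with no filter (adjusted p = 0.0573) or no trend (adjusted p = 0.0742). TBK1 (0.16, adjusted p = 0.0514) and *nlk1* (0.10, adjusted p = 0.149, limma) did not pass.

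Of the 12 tested ubiquitin editors and feedback inhibitors 0 passed in the main limma fit, against 17.5% of all genes tested. Of these 12, edgeR called 0 and DESeq2 called 1, a rise of *azi2*. Other limma settings gave 2 higher genes with library totals equalised, and 1 without wild-type 5, GR-mutant 4 or GR-mutant 6. Without GR-mutant 6, 1 gene was lower as well. At an unadjusted p under 0.05 in limma 1 was lower and 2 were higher. The smallest adjusted p-values were those of SHARPIN (log2 fold change 0.16, adjusted p = 0.0767), *azi2* (0.45, adjusted p = 0.0857), CYLD (-0.13, adjusted p = 0.0954), a deubiquitinase that restrains the pathway, and *tnip2* (0.64, adjusted p = 0.194). Among 8 further IκB-like proteins and Rel partners 1 was lower and 0 higher, against 9.92% lower and 7.59% higher over all genes tested. The lower gene was COMMD1, which promotes the degradation of RelA in human cells (381 ± 19.9 in GR-mutant and 455 ± 38.3 in wild-type brains, SD, n = 6 each). Its log2 fold change was -0.25 (adjusted p = 0.0250, limma). That call was lost without wild-type 5 or GR-mutant 5, with library totals equalised and with the replicate number as a block (adjusted p up to 0.0851 over all alternatives). *bcl3*, a nuclear IκB protein, had a log2 fold change of 0.92 that did not pass (adjusted p = 0.177, limma).

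Genes listed as NF-κB targets moved in both directions, with 4 of 20 tested genes lower and 2 higher. Target genes placed in other groups, such as *il1b* (higher) and *nfkbiab* (lower), are not among these 20, so the counts do not cover all targets. Over all genes tested 9.92% were lower and 7.59% higher. The 22 alternatives gave 2 to 4 lower and 0 to 3 higher targets. The 0 arose where a mean of at least 100 normalised counts was required, which neither of the 2 higher targets reached. Both passed in the 21 alternatives that tested them. The lower targets with the smallest p were both copies of GADD45B, a stress-response gene of cell survival. GADD45B (ENSDARG00000027744) had 1194, 1313, 1099.8, 842, 808 and 963 normalised counts in GR-mutant brains 1 to 6, against 2262, 2735, 3336, 3101, 2131 and 2535 in wild-type brains 1 to 5 and 7, with no overlap (log2 fold change -1.38, adjusted p = 1.79e-05, limma). GADD45B (ENSDARG00000013576) averaged 220 ± 64.9 in GR-mutant and 389 ± 93.5 in wild-type brains (SD, n = 6 each), a log2 fold change of -0.83 (adjusted p = 0.0108, limma). The chemokine gene *cxcl8b.1*, whose product attracts neutrophils, was higher, with 40.7, 55.0, 72.7, 40.4, 93.1 and 68.8 normalised counts in GR-mutant brains 1 to 6, against 21.3, 35.9, 17.6, 4.53, 9.78 and 7.30 in wild-type brains 1 to 5 and 7 (log2 fold change 2.10, adjusted p = 0.00428, limma). *tnfaip2b*, a gene named for its induction by TNF, was also higher, at low counts, 11.9 to 48.6 in GR-mutant and 2.26 to 15.1 in wild-type brains (log2 fold change 1.71, adjusted p = 0.0148, limma). The remaining lower targets, named after their values were seen, were the copies of NOS2, the inducible nitric oxide synthase. NOS2 (ENSDARG00000026925) had a log2 fold change of -3.02 (adjusted p = 0.0392, limma), kept only when wild-type 3, wild-type 4 or GR-mutant 6 was the library left out (adjusted p up to 0.0831 without another) and not called with no filter, without the trend, by edgeR or by DESeq2. NOS2 (ENSDARG00000031976) had one of -0.44 (adjusted p = 0.0414, limma), kept only without wild-type 3 or GR-mutant 3 (adjusted p up to 0.0865 without another) and not called with no filter, with library totals equalised or by edgeR.

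**Figure D5:**
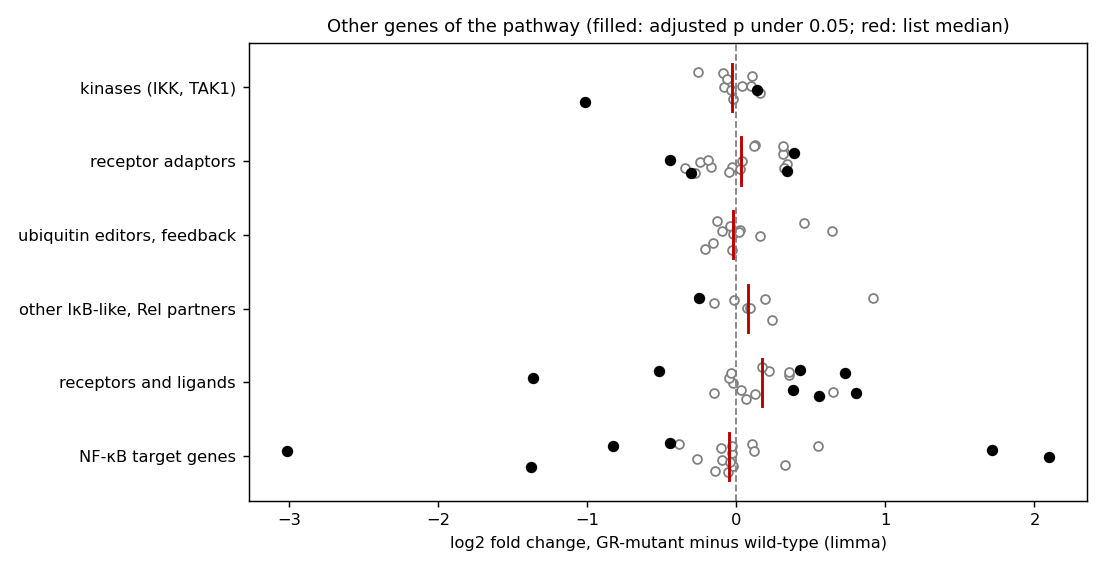
Log2 fold change, GR-mutant minus wild-type, from limma (horizontal axis) for the 91 tested genes of the pathway outside the 10, 1 row per list. Filled points have an adjusted p under 0.05, open points do not, and the red line is the median of the list. Filled points lie on both sides of 0, 10 lower and 10 higher, and the row of ubiquitin editors and feedback inhibitors has none.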

How the data were processed

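RNA was measured in 12 brains, 6 GR-mutant and 6 wild-type, grouped by the genotype label. Per the study's methods and the submitters' processing notes, the authors trimmed the reads with Trimmomatic (3.9 in those notes), aligned them to GRCz11 with STAR, whose gene counts they normalised in DESeq2 (median of ratios). What was deposited is a signal per gene, the normalised count. Multiplied back by its size factor, 100% of values were whole reads (tolerance 0.001 read). No source used here states which strand was counted. Each sample is another brain, and no libraries were duplicates, as any pair differed in at least 24900 genes.

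log2(normalised count + 1) was fitted with limma (3.58.1, R 4.3.3) with a mean-variance trend. The filter kept 20114 genes that reached 10 normalised counts in 6 or more libraries. Benjamini-Hochberg adjusted p-values under 0.05 passed, and the scale understates the fold change of low genes. Intervals of log2 fold changes are 95% intervals of this fit. The paralog ratio used a two-sided exact permutation test. edgeR (4.0.16) and DESeq2 (1.42.0) ran on the recovered reads as alternatives, beside other pseudocounts (0.5 and 5), filters, scalings, a replicate block and leaving out each library. Figures used matplotlib 3.10.9 in Python 3.11.15.

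The genes and lists were chosen with earlier results of these data known; *lta4h* was dropped from the target list after its values were seen, since it is no NF-κB target. The rule for named genes takes the 10 genes, up to 4 genes with the smallest p of each other list (of which the text gives examples), *nr3c1*, and the 5 genes most like *nfkbiab*; neighbours in the gene order were named after their values were seen. Of the IDs, 29201 had a symbol, 6136 of them a shared one. Symbols and chromosomes came from name tables without coordinates of the files' build, and the gene order is the row order of the deposited values. A symbol shared by several IDs is printed with its ID. Sequences and levels per length were not analysed here, nor were the methylation and behaviour experiments.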

Additional observations from a re-analysis of the deposited data

Results flagged for a closer look

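Single brains stood far from the other 5 of their genotype in 3 of the 26 groups of 6 values examined (the 10 genes and 3 sums or ratios in each genotype). The rule flags about 1 in 20 groups where values are normally distributed. It was applied to normalised counts without a log, and the sums and ratios reuse the same genes, so its chance rate here is not known. *nfkbiaa* had 435 normalised counts in GR-mutant 2, above 230 to 299 in the other GR-mutant brains, with a gap to its neighbour of 0.66 of the whole range. *nfkbiz* had 140 in GR-mutant 2, above 63.1 to 77.7 in the others, a gap of 0.81. *rela* had 187 in GR-mutant 3, above 109 to 138 in the others, a gap of 0.63. None of these genes passed the test between genotypes with or without the brain concerned.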

How the results depend on the processing

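The fall of *nfkbiab* (log2 fold change -1.93 to -1.79) and the rise of *nfkb2* (0.30 to 0.44) passed under all 22 alternatives run, and no value past the threshold changed sign. *nfkbib* kept its direction but did not pass with library totals equalised (-0.080, adjusted p = 0.232), with the replicate block (-0.16, adjusted p = 0.109) or in limma with no trend (-0.16, adjusted p = 0.0565), so that in these settings 1 of the 10 genes was lower instead of 2. Leaving out 1 library at a time gave -0.18 to -0.14 for *nfkbib* (adjusted p = 0.0210 to 0.0616), 1 or 2 of the 10 genes lower, and 5 to 10 lower genes of the 91 around them. Of those 91 genes, 17 were higher with library totals equalised and 4 with the replicate block. Over all 20114 genes tested, 3023 and 976 were higher in these settings, against 1527 in the main fit. The cause was not tested. The 7 genes without a call stayed without one under every alternative that gave a value; *nfkb1* and *nfkbiz* have none at a mean of at least 100 normalised counts. The paralog contrast was -1.75 to -1.58 (p = 0.00216, exact permutation test) when any library was left out. That p is the lowest possible with 5 brains against 6, and it could not change, as the ratios did not overlap between the genotypes.

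Over replicate numbers 1 to 5, deviations of same-numbered libraries correlated at -0.15 to 0.08. Of the 5 GR-mutant libraries, 0 correlated best with the wild-type library of the same number. Whether the numbers mark a shared batch cannot be told from 5 pairs. With the number as a replicate block 1364 genes were lower and 976 higher, against 1996 and 1527 without it. In that fit GR-mutant 6 and wild-type 7 have no partner of the same number and add nothing to the genotype difference. It thus rests on 5 libraries per genotype with fewer degrees of freedom, and the part of this in the lost calls was not tested. In limma with that block the calls of COMMD1 (adjusted p = 0.0538), *traf3* (0.0598), *tnfrsf1a* (0.0786), *il1b* (0.108) and *ticam1* (0.152) were lost. So were those of *tlr5b* (0.118), *tnfrsf1b* (0.121), MAP3K7 (0.126) and NOS2 (ENSDARG00000031976, 0.170). Permuting within the 5 shared numbers left the paralog contrast at -1.63 (p = 0.0625, the smallest that exact test allows). DESeq2 called 2448 genes lower and 1958 higher. Levels per gene length, and promoter and protein sequences, were planned but not run, as no lengths or sequences were used here. The lowest gene, *nfkb1*, had at least 29 reads per library, and the shallow counts of *nfkb1*, *nfkbiz* and *rela* limit what could be detected for them.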
